A study of Mus musculus with 12 samples.

Results

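Expression of 46 listed genes of the Wnt pathway was examined after knockdown of *Kdm6a*, the gene of an H3K27 demethylase, in undifferentiated mouse ES cells. The genes were taken by symbol from the annotation of the array and comprised ligands, receptors, antagonists, intracellular components, nuclear effectors, feedback targets and secretion factors. Of the 46, 45 were measured and all 45 reached the minimum level of 0.1 of the array mean that was set for testing, among 15309 of 19938 genes. *Tcf7* is not analysed here. The members nearest the minimum were *Lgr5* at 0.107 and *Wnt5a* at 0.131 of the array mean, and no measured member lay below it. The study compared *Kdm6a* RNAi with control RNAi on 12 expression arrays of 2 ES cell lines. PGK12.1 is a female line from blastocysts of a cross between strain 129 and a (129 X PGK)F1 male, and WD44 is a male line of BL6 origin, so that the sex, strain and array set of the lines cannot be told apart. *Kdm6a* RNAi used a pool of siRNAs, and control RNAi used siRNAs with no target. In PGK12.1, experiments 1 and 2 were double RNAi (100 pmol of siRNAs for 48 h, then 400 pmol for a further 24 h) and experiments 3 and 4 were single RNAi (100 pmol for 48 h). WD44 had 2 single RNAi experiments, so that comparisons of all PGK12.1 experiments with WD44 also differ in RNAi dose and time. Each experiment gave 1 *Kdm6a* RNAi array and 1 control array. All cells were kept with LIF on fibroblast feeders, which were depleted on gelatin before RNAi. The study describes its array experiments as independent, without saying for WD44 whether separate cultures were used, and p-values may then rest on technical spread.

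In canonical Wnt signaling, a lipid-modified Wnt ligand binds a Frizzled receptor with an LRP5 or LRP6 coreceptor, the complex of AXIN, APC and GSK3B that marks β-catenin for destruction is inhibited, and β-catenin enters the nucleus and acts with TCF and LEF proteins. In mouse ES cells, inhibition of GSK3 supports self-renewal, and TCF7L1 represses pluripotency genes until β-catenin relieves it. Much of the pathway consists of inhibitors, several of which are themselves induced by the signal.

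*Kdm6a* was lower in every *Kdm6a* RNAi array than in its control. Its change on the log2 scale was -1.27, -1.50, -1.42 and -0.96 in PGK12.1 experiments 1 to 4, and -0.94 and -0.92 in WD44. The Y-linked *Eif2s3y* read 0.0171 to 0.0268 of the array mean on the 8 PGK12.1 arrays and 0.944 to 1.05 on the 4 WD44 arrays. The arrays were on different scales. Median log2 values were 6.15 to 6.21 in PGK12.1 experiments 1 and 2, 6.47 to 6.48 in experiment 3 and 8.20 to 8.21 in experiment 4, and 8.03 to 8.08 in WD44. PGK12.1 experiment 4 stood apart in ranks as well, with Spearman correlations of 0.932 to 0.942 with experiments 1 to 3, against 0.974 to 0.996 among those. Its correlations with the WD44 arrays were 0.941 to 0.945, close to those with experiments 1 to 3 of its own line. Experiments 1 to 3 had 0.895 to 0.913 with WD44. Changes were therefore taken within experiments, where both arrays share a scale. The 8 markers of undifferentiated ES cells summed to 59.7 to 87.5 times the array mean after *Kdm6a* RNAi and 59.2 to 88.1 in controls of PGK12.1. No marker of undifferentiated cells, fibroblasts, primitive endoderm or primitive streak was called there by limma (0 of 28 tested, 3 at an unadjusted p under 0.05). RNA was taken from whole cultures, so that fewer cells of a type and less RNA per cell cannot be told apart.

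In PGK12.1, *Kdm6a* RNAi raised *Notum*, *Porcn* and *Lef1* and lowered *Lgr4* and *Sfrp1*. These were 5 of the 45 members at an adjusted p under 0.05 (limma with the experiment as a block, Benjamini-Hochberg adjustment over all genes tested), while 5.81% of all genes were called, 3.71% higher and 2.10% lower. At an unadjusted p under 0.05 there were 13 members, beside 22.6% of all genes. The median change of the members was -0.02 on the log2 scale, and that of all genes 0.01. Changes above 0 in all 4 PGK12.1 experiments were seen for 6 members (background 16.3% of genes) and below 0 in all 4 for another 6 (background 10.6%). Calls came from 4 of the 7 role groups, and no ligand, intracellular component or feedback target was called. Without the block no member was called, and neither was any with the methods' paired t-test or in the double RNAi experiments alone, while the single RNAi experiments alone gave 1 (*Lef1*). The map of changes by experiment shows *Notum*, *Porcn* and *Lef1* as warm rows and *Lgr4* and *Sfrp1* as cold rows on the PGK12.1 side.

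**Figure D1:**
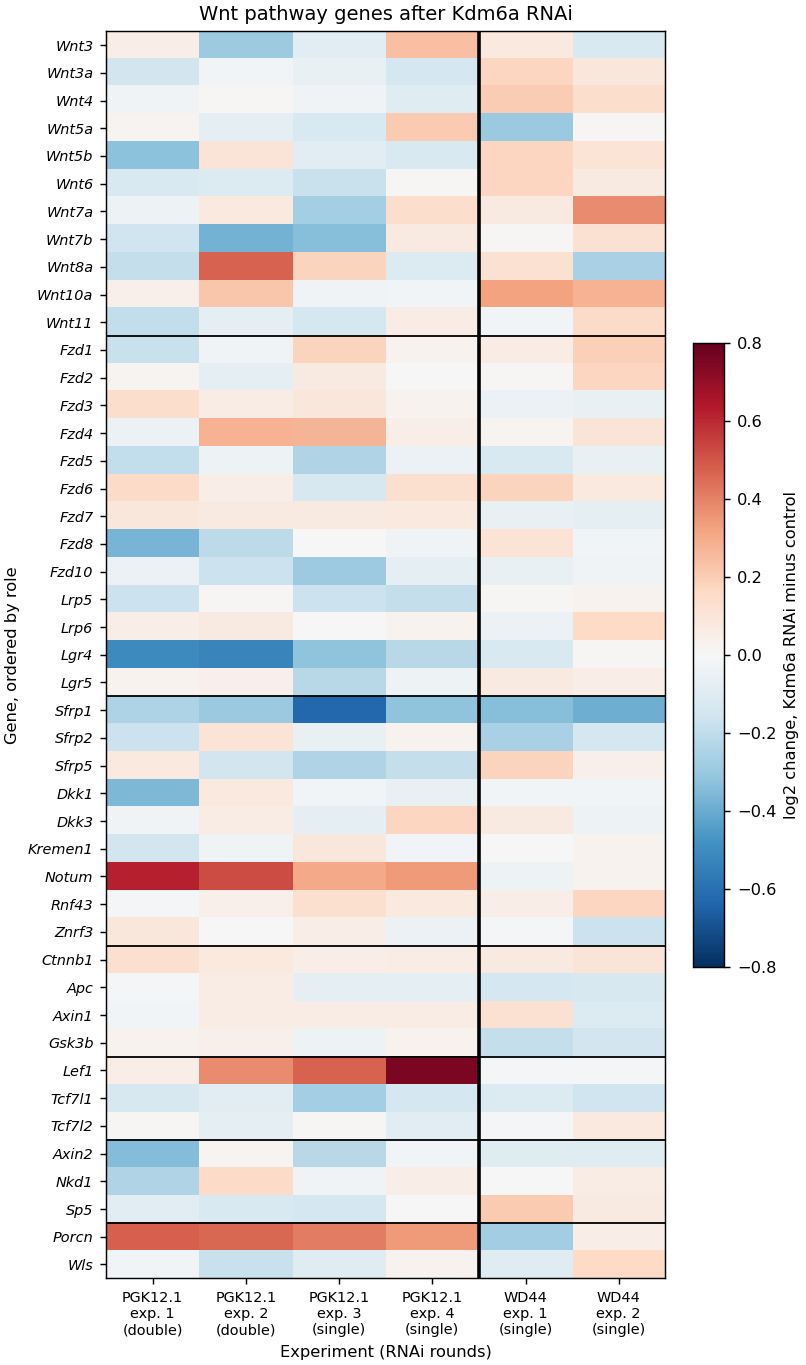
Log2 change (*Kdm6a* RNAi minus its paired control) of the 45 measured Wnt pathway genes, one row per gene in blocks by role (ligands at the top, then receptors, antagonists, intracellular components, nuclear effectors, feedback targets and secretion) and one column per experiment, with PGK12.1 left of the thick line and WD44 right of it; red is higher and blue lower after *Kdm6a* RNAi. *Notum* (0.30 to 0.62) and *Porcn* (0.34 to 0.48) are red in all 4 PGK12.1 experiments, and *Sfrp1* is blue in all columns (-0.63 to -0.25 in PGK12.1, -0.39 and -0.34 in WD44).

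Among secretion factors, *Porcn* encodes the acyltransferase that attaches the lipid to Wnt ligands and lies on the X chromosome. Its level, as a multiple of the array mean, was 2.92, 2.81, 1.52 and 4.14 after *Kdm6a* RNAi in PGK12.1 experiments 1 to 4, against 2.12, 2.03, 1.14 and 3.27 in their controls. Levels are divided by each array's own mean, so their ratios can differ slightly from the log2 changes. Each *Kdm6a* RNAi array lay above its own control, although the levels of the groups overlap across experiments. The rise was 34.0% ± 5.74 (SD, n = 4 experiments), or 0.42 on the log2 scale (SE 0.0571, 95% interval 0.29 to 0.55, adjusted p = 0.00432). *Wls*, which carries lipidated Wnt proteins to the cell surface, was not called in PGK12.1 (log2 change -0.07, adjusted p = 0.516).

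Among the 9 antagonists, 1 was called higher and 1 lower. *Notum* encodes a secreted enzyme that removes the lipid from Wnt ligands. It measured 1.64, 1.51, 0.918 and 0.914 times the array mean after *Kdm6a* RNAi, against 1.08, 1.04, 0.744 and 0.721 in the controls of PGK12.1 experiments 1 to 4. It was higher in 4 of 4 experiments, with the levels after double RNAi above all control levels and those after single RNAi within their range. *Notum* rose by 36.1% ± 14.4 (SD, n = 4), a log2 change of 0.45 (SE 0.0581, 95% interval 0.31 to 0.58, adjusted p = 0.00375), and had the smallest adjusted p among the members.

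*Sfrp1*, a secreted decoy that binds Wnt ligands, went the other way. Its levels were 1.01, 1.01, 0.984 and 2.99 after *Kdm6a* RNAi and 1.22, 1.23, 1.52 and 3.73 in controls. It was lower in 4 of 4 experiments, and experiment 4 was high in both arrays, so the groups overlap across experiments. The log2 change was -0.38 (SE 0.0624, 95% interval -0.51 to -0.24, adjusted p = 0.00936), equal to -22.9% ± 8.76 (SD, n = 4). *Sfrp5*, of the same family, had a log2 change of -0.13 (adjusted p = 0.238). The other 6 antagonists were not called, and *Sfrp2* was among them (log2 change -0.02).

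Of the 13 receptors and coreceptors, 1 was called. *Lgr4* encodes a receptor for R-spondins, which enhance Wnt signaling by keeping Frizzled proteins on the cell surface. It read 1.81, 1.97, 1.81 and 2.85 times the array mean after *Kdm6a* RNAi, against 2.61, 2.83, 2.26 and 3.31 in controls. All 4 experiments were lower, though the groups overlap across experiments, and the double RNAi experiments had the larger changes (-0.51 and -0.53 on the log2 scale, beside -0.32 and -0.22 in the single ones). The mean log2 change was -0.40 (SE 0.0593, 95% interval -0.53 to -0.26, adjusted p = 0.00642), or -24.0% ± 8.01 (SD, n = 4). The Frizzled genes *Fzd5* (-0.13), *Fzd8* (-0.15) and *Fzd10* (-0.15) and the coreceptor *Lrp5* (-0.13) had log2 changes below 0 and *Fzd4* (0.14) one above 0, all with an unadjusted p under 0.05 and adjusted p from 0.123 to 0.218. *Fzd5* and *Fzd10* were lower in each of the 4 experiments, and *Fzd7* was higher by 0.07 to 0.09 in each (adjusted p = 0.284).

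**Figure D2:**
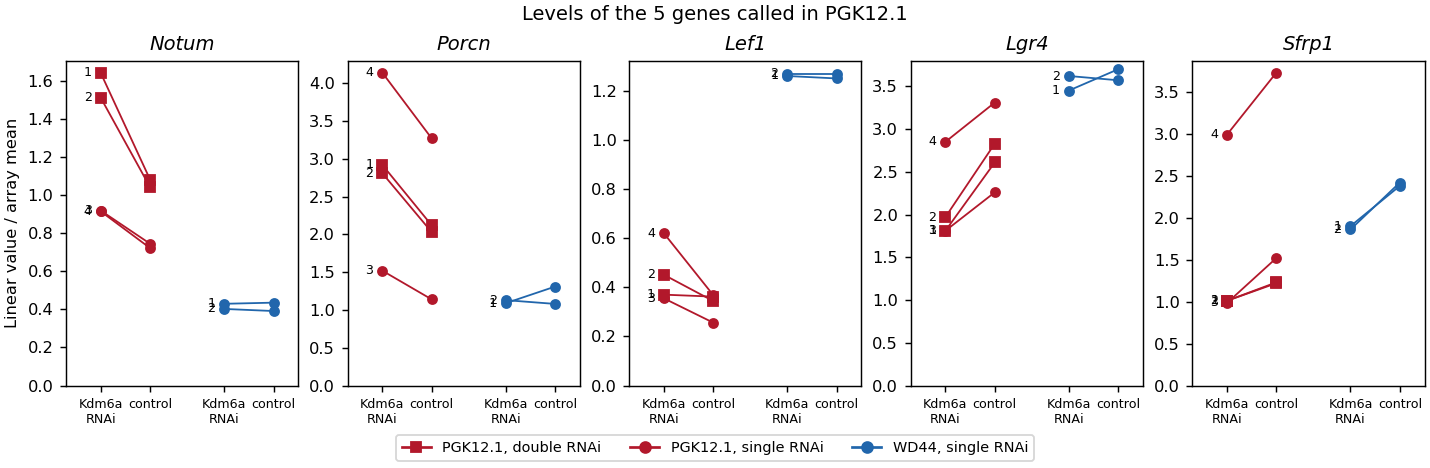
Levels of the 5 called genes as linear values divided by the array mean, with a line joining the *Kdm6a* RNAi array (left) to the control array (right) of each experiment; red squares are PGK12.1 double RNAi, red circles PGK12.1 single RNAi and blue circles WD44, and the small digits are experiment numbers. All 4 red lines descend from *Kdm6a* RNAi to control for *Notum*, *Porcn* and *Lef1* and all 4 climb for *Lgr4* and *Sfrp1*, with experiment 1 of *Lef1* nearly flat (0.37 and 0.362).

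In the plot of levels by experiment, the slopes of *Notum* and *Porcn* are steep in each PGK12.1 experiment, while those of *Lef1* vary. *Lef1* encodes a DNA-binding partner of β-catenin. It stood at 0.37, 0.451, 0.355 and 0.62 times the array mean after *Kdm6a* RNAi and at 0.362, 0.344, 0.256 and 0.368 in controls of PGK12.1 experiments 1 to 4. Experiment 1 differed by only 0.05 on the log2 scale and experiment 4 by 0.75, and the groups overlap. The mean log2 change was 0.41 (SE 0.0895, 95% interval 0.21 to 0.61, adjusted p = 0.028). The call was lost without experiment 2 (adjusted p = 0.0876), 3 (0.0832) or 4 (0.0773) of PGK12.1 and without either WD44 experiment (0.0606). It was also lost with PGK12.1 arrays alone (0.0606) and with no minimum level (0.0656), in all in 10 of 17 alternatives, though its direction held in each case. *Tcf7l1*, the repressor among the TCF genes of ES cells, was lower in 4 of 4 experiments by 0.09 to 0.27 and missed the threshold (log2 change -0.16, adjusted p = 0.0732). *Tcf7l2* had a log2 change of -0.04 (adjusted p = 0.683).

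The windows around the starts of the members in the RefSeq promoter table were searched for the core that TCF and LEF proteins bind. Windows with a match are printed for the nuclear effectors *Lef1* and *Tcf7l1*. The effector *Tcf7l2*, also called between the lines, had a match 14 bases before a start in 1 of its 2 windows, which is not printed. Windows run from 250 bases before to 50 after a start, in GRCm38.p6, and capitals mark CTTTGA or CTTTGT on either strand. *Lef1* had 4 windows, of which 1, chr3:131156044-131156343 on the plus strand at an internal start, held 3 matches. The first of these began 180 bases before that start. *Tcf7l1* had 1 window, chr6:72788996-72789295 on the minus strand, with 1 match 28 bases before the start. A match is a description of the letters and not evidence of binding.
Lef1: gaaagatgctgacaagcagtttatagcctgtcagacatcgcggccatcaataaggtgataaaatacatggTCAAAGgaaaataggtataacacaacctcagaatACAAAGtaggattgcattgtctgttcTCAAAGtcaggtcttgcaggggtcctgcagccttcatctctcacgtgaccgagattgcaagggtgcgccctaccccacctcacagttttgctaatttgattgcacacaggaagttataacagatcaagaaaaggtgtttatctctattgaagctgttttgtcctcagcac
Tcf7l1: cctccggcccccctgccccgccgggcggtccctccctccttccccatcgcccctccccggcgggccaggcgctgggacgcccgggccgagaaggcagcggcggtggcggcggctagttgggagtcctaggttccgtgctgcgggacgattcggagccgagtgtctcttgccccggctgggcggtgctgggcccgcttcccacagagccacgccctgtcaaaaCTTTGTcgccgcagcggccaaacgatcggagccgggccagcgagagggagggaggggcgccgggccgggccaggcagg
Over the 27 of 46 members with a window, 11 held a match in at least 1 window. Of their 37 windows, 18.9% held CTTTGA, 21.6% held CTTTGT and 29.7% held either, while among all 32851 windows of the table the shares were 16.0%, 18.7% and 31.2%. The members' windows were richer in G and C (median 66.0% against 52.7%) and had a median of 22 CpG against 7. *Axin2* had 1 window with no match, and *Notum*, *Porcn* and *Sfrp1* are named only.

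No ligand was called in PGK12.1, where 8 of the 11 had a mean change below 0 and the group's median was -0.04 on the log2 scale. *Wnt7b* had the largest change, with levels of 0.343, 0.306, 0.244 and 0.353 after *Kdm6a* RNAi and 0.388, 0.395, 0.308 and 0.336 in controls. It was lower in 3 of 4 experiments, with a log2 change of -0.20 (adjusted p = 0.127). Without experiment 4, the one in which it was higher, *Wnt7b* reached the threshold (log2 change -0.29, adjusted p = 0.0386). *Wnt3a*, which supports self-renewal of ES cells in culture, was lower in 4 of 4 experiments by 0.02 to 0.15 (adjusted p = 0.249).

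The 4 intracellular components spanned log2 changes of -0.02 (*Apc*) to 0.08 (*Ctnnb1*, the gene of β-catenin) in PGK12.1, with no call and a smallest adjusted p of 0.283. *Ctnnb1*, chosen here after its values were seen, was higher by 0.05 to 0.13 in each of the 6 experiments, the only member to be so, beside 3.88% of all genes. *Fzd5*, *Fzd10*, *Sfrp1* and *Tcf7l1* were lower in each of the 6, beside 3.93% of all genes. The feedback targets *Axin2*, *Nkd1* and *Sp5*, which β-catenin induces in many cell types, all had means below 0 and none was called. *Axin2* changed by -0.35, 0.02, -0.22 and -0.02 on the log2 scale in experiments 1 to 4, so that its mean of -0.14 (adjusted p = 0.212) came from experiments 1 and 3.

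Other genes of the pathway were counted from a list of 63, of which 60 were tested. In PGK12.1, 4 were called higher and 1 lower, beside 3.71% and 2.10% of all genes, with a median change of 0.00. The secreted antagonist *Sfrp4* measured 0.534, 0.559, 0.627 and 0.801 times the array mean after *Kdm6a* RNAi and 0.419, 0.489, 0.416 and 0.619 in controls. It was higher in 4 of 4 experiments, opposite to its relative *Sfrp1*, with a log2 change of 0.38 (SE 0.0631, adjusted p = 0.00944). Among nuclear corepressors, *Tle4* was higher by 0.25 (adjusted p = 0.0137) and *Ctbp2* by 0.16 (adjusted p = 0.0484), while *Tle3* was lower (-0.16, adjusted p = 0.0455). *Hbp1*, a repressor of Wnt target genes, was higher by 0.20 (adjusted p = 0.024). Calls among corepressors thus ran in both directions.

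Of 21 genes known as targets of β-catenin or TCF7L1 in ES cells or early embryos, 19 were tested and 2 were called in PGK12.1, 1 in each direction, beside 5.81% of all genes. *Id2*, an inhibitor of bHLH transcription factors, was higher in 4 of 4 experiments (0.868, 0.859, 1.19 and 2.38 times the array mean after *Kdm6a* RNAi, against 0.685, 0.659, 1.13 and 1.55 in controls, log2 change 0.36, adjusted p = 0.0242). *Ascl2*, a bHLH factor of trophoblast and intestinal stem cells, was lower in 4 of 4 (0.174, 0.169, 0.244 and 0.323, against 0.246, 0.235, 0.274 and 0.373 in controls, log2 change -0.34, adjusted p = 0.014). The median over the 19 targets was -0.02. The plot of these other Wnt genes shows that the changes of *Tle3*, *Ascl2* and *Ctbp2* had the same sign in all 6 experiments.

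**Figure D3:**
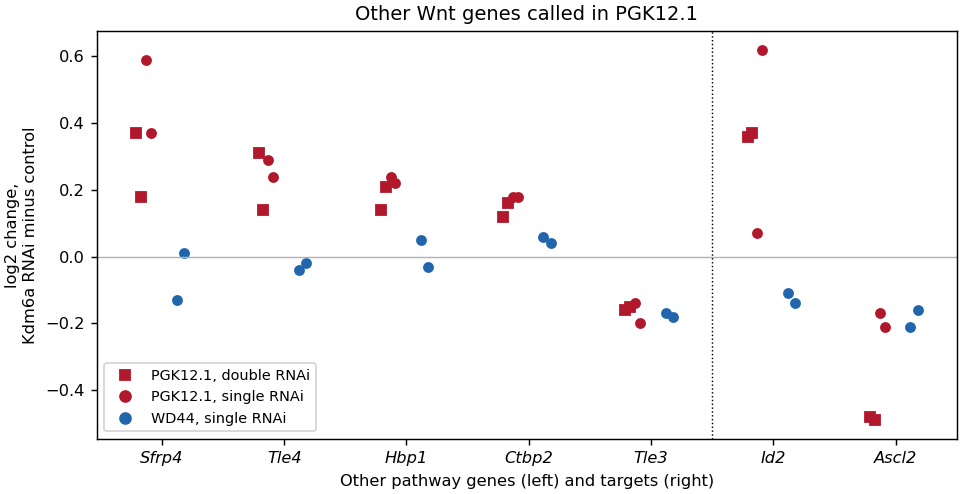
Log2 change (*Kdm6a* RNAi minus control) per experiment of the called genes outside the member list, with pathway genes left of the dotted line and targets right of it, PGK12.1 in red (squares double RNAi, circles single RNAi) left of WD44 in blue. *Sfrp4* is above 0 in all 4 PGK12.1 experiments (0.18 to 0.59) and at -0.13 and 0.01 in WD44, while *Tle3* lies between -0.20 and -0.14 in all 6 experiments.

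In WD44, no member was called by limma, and neither was any other gene (0.00% of genes called, 5 members and 16.1% of all genes at an unadjusted p under 0.05). The alternatives tried gave 0 members and at most 12 genes. Even *Kdm6a*, reduced by 47.5% ± 0.515 (SD, n = 2), had an adjusted p of 0.13, so a missing call in WD44 does not show a missing change. *Sfrp1* read 1.90 and 1.86 times the array mean after *Kdm6a* RNAi, against 2.38 and 2.42 in controls. Both arrays after *Kdm6a* RNAi lay below both controls, with a log2 change of -0.37 (95% interval -0.56 to -0.17, adjusted p = 0.164).

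The member with the largest change upward in WD44 was the ligand *Wnt10a*, at 0.277 and 0.277 after *Kdm6a* RNAi against 0.219 and 0.226 in controls (log2 change 0.30, adjusted p = 0.164). The groups did not overlap there, but the threshold was not reached. *Wnt4* (0.17), *Gsk3b* (-0.17), *Sfrp2* (-0.20) and *Apc* (-0.14) had adjusted p of 0.221 to 0.314. *Gsk3b*, whose kinase marks β-catenin for destruction, read 1.84 and 1.81 after *Kdm6a* RNAi and 2.07 and 1.99 in controls. In all, 17 members were above 0 in both WD44 experiments (background 31.3%) and 13 below 0 in both (background 33.1%). Fibroblast markers summed to 2.22 to 2.37 times the array mean after *Kdm6a* RNAi in WD44, against 2.06 to 2.19 in controls, with 0 of 7 called and 3 at an unadjusted p under 0.05, and their part in the WD44 values was not tested.

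The other 4 genes called in PGK12.1 had mean log2 changes of -0.01 (*Notum*), -0.12 (*Porcn*), -0.06 (*Lgr4*) and -0.01 (*Lef1*) in WD44. *Notum* read 0.429 and 0.402 after *Kdm6a* RNAi against 0.435 and 0.391 in controls, and *Lef1* read 1.26 and 1.27 against 1.25 and 1.27. *Porcn* read 1.09 and 1.13 against 1.31 and 1.08, and *Lgr4* 3.45 and 3.62 against 3.70 and 3.57. In these 4 genes the *Kdm6a* RNAi and control arrays differed in opposite directions between the WD44 experiments or by 0.01 on the log2 scale. Their 95% intervals in WD44 were -0.19 to 0.18 for *Notum*, -0.30 to 0.07 for *Porcn*, -0.24 to 0.13 for *Lgr4* and -0.29 to 0.27 for *Lef1*.

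The difference between the lines was tested itself, with the WD44 change subtracted from the PGK12.1 change. The PGK12.1 change averaged double and single RNAi while WD44 had single RNAi only, so that RNAi dose and time differ as well. *Kdm6a* fell by 59% in PGK12.1 and by 47.5% in WD44. No member reached an adjusted p of 0.05, and no gene did (0.00% called by limma, 12 members and 21.0% of all genes at an unadjusted p under 0.05). The differences of largest size were 0.54 for *Porcn* (95% interval 0.32 to 0.76, adjusted p = 0.0843), 0.45 for *Notum* (0.22 to 0.68, adjusted p = 0.0912), 0.42 for *Lef1* (0.08 to 0.77, adjusted p = 0.165) and -0.34 for *Lgr4* (-0.57 to -0.11, adjusted p = 0.116). With a minimum level of 0.25, which left 10539 genes, *Porcn* and *Notum* passed (adjusted p = 0.0351 and 0.043), and with a trended and robust variance *Lgr4* passed as well (0.0342). For *Sfrp1* the difference was -0.01 (-0.25 to 0.23, adjusted p = 0.967). The scatter of the lines places *Sfrp1* near the diagonal and the other 4 called genes near the horizontal axis.

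**Figure D4:**
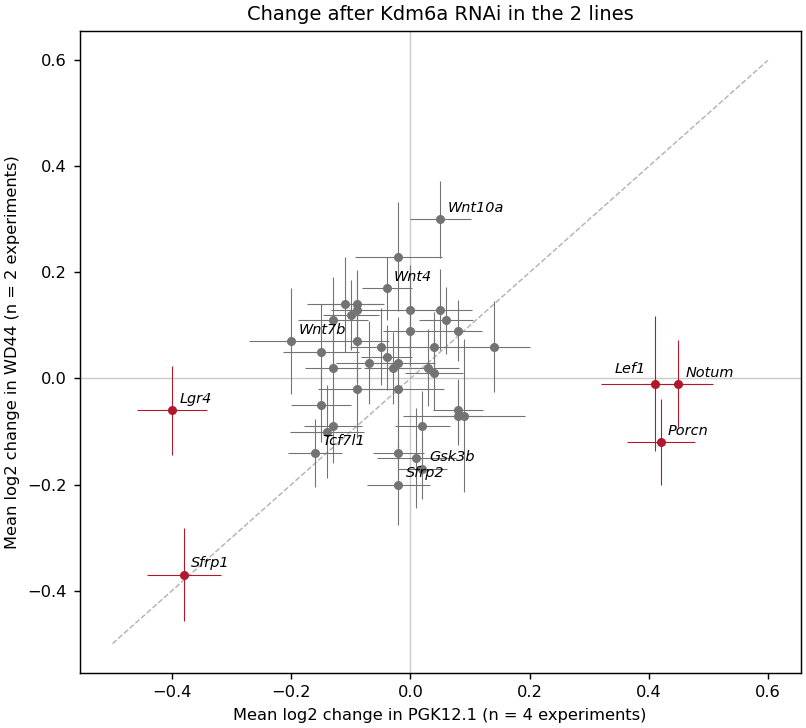
Mean log2 change after *Kdm6a* RNAi in PGK12.1 (horizontal axis, n = 4 experiments) and WD44 (vertical axis, n = 2) for the 45 members, with standard errors from limma, red for the 5 genes called in PGK12.1 and a dashed line where both lines would change alike. *Sfrp1* lies at -0.38 and -0.37, while *Notum* (0.45 and -0.01), *Porcn* (0.42 and -0.12), *Lef1* (0.41 and -0.01) and *Lgr4* (-0.40 and -0.06) lie away from the dashed line.

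In 9 of the 11 ligands the change in PGK12.1 was below that in WD44, beside 7065 of all 15309 genes, and the median difference was -0.22, beside 0.02 over all genes. *Wnt3a* (-0.22, adjusted p = 0.149) and *Wnt4* (-0.21, adjusted p = 0.152) had the smallest p of the ligands, and *Sp5*, a feedback target, had a difference of -0.23 (adjusted p = 0.151). *Wnt3a* was higher by 0.17 and 0.09 in WD44 and lower in each PGK12.1 experiment. No ligand reached the threshold, and the members of a family measured on the same arrays are not independent. The 11 ligands had low levels, from 0.131 (*Wnt5a*) to 0.359 (*Wnt7b*) of the array mean. The 7 fibroblast markers tested had a similar median difference of -0.23, with 5 below 0 and 2 above. Whether the difference is particular to ligands was not tested.

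Double and single RNAi in PGK12.1 differed in dose, time and array set, which cannot be told apart. No member was called in double minus single RNAi, and no gene was (0.00% called by limma, 4 members and 8.88% of all genes at an unadjusted p under 0.05, at most 1 gene in the alternatives). *Lef1* had a difference of -0.40 (95% interval -0.69 to -0.10), since it changed by 0.05 and 0.38 in the double RNAi experiments and by 0.47 and 0.75 in the single ones. *Notum* differed by 0.25 (0.06 to 0.44) and *Lgr4* by -0.25 (-0.45 to -0.05), each with the larger change after double RNAi. *Fzd8*, a Frizzled receptor, changed by -0.37 and -0.21 after double RNAi, beside 0.00 and -0.03 after single RNAi. All 4 had an adjusted p of 0.514. *Porcn* changed by 0.48 and 0.46 after double RNAi, beside 0.41 and 0.34 after single RNAi (difference 0.10, 95% interval -0.16 to 0.35, adjusted p = 0.853).

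The control arrays were used to set the levels of the lines side by side, after quantile normalization of the 6 arrays, since the deposited scales differ. Between PGK12.1 and WD44, 17 of the 45 members were called, 4 higher and 13 lower in PGK12.1, while 18.6% of all genes were called, 8.52% higher and 10.0% lower. The members' median difference was -0.31 on the log2 scale, against 0.03 for all genes, and 24 members had an unadjusted p under 0.05, beside 38.0% of all genes. All 4 PGK12.1 controls lay above both WD44 controls for 8 members (background 26.3%) and below both for 21 (background 24.5%).

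These counts depended on single arrays. In PGK12.1 experiment 4, ranks were about as close to WD44 as to PGK12.1 experiments 1 to 3. Without the PGK12.1 control of that experiment there were 32 calls, and 57.9% of all genes were called. Without that of experiment 1 there were 9 (8.30% of all genes) and without that of experiment 2 there were 7 (7.36%). Without either WD44 control 1 remained, which was *Lef1* (1.51% and 1.25% of all genes). Over the alternatives tried, the call of *Lef1* was kept in all 12, while those of *Kremen1* and *Tcf7l1* were lost in 10 and 8 of 12 and each of the others in 2 to 6.

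All 3 measured nuclear effectors were lower in PGK12.1. *Lef1* had quantile-normalized log2 values of 8.14, 8.11, 7.85 and 7.79 in PGK12.1 controls and 9.59 and 9.62 in WD44 controls. The groups did not overlap, and the difference of -1.63 (SE 0.148, adjusted p = 0.00161) put PGK12.1 at 0.322 of the WD44 level. *Tcf7l2* read 8.35, 8.36, 7.95 and 8.38 in PGK12.1 and 9.66 and 9.75 in WD44 (difference -1.45, adjusted p = 0.00275), also without overlap. *Tcf7l1* differed by -0.73 (adjusted p = 0.0318).

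Of the receptors, *Fzd2* (8.19, 8.22, 8.01 and 7.95 in PGK12.1, 9.33 and 9.37 in WD44) had the largest difference (-1.26, adjusted p = 0.00232). *Fzd7* (-0.70), *Fzd8* (-0.55) and the R-spondin receptor *Lgr5* (-0.71) were lower too, and *Fzd5* (0.60, adjusted p = 0.0149) was higher. *Lgr5* averaged 0.0872 of the array mean in PGK12.1 controls, below the minimum of 0.1, and 0.145 in WD44 controls. It thus reached the minimum only through its level in WD44, and its difference rests on values near that minimum. Among ligands, *Wnt3* had log2 values of 6.60, 6.93, 6.98 and 6.82 in PGK12.1 and 7.95 and 8.08 in WD44 (difference -1.18, adjusted p = 0.00409). *Wnt8a* (-0.97) was lower as well, while *Wnt3a* was higher (0.50, adjusted p = 0.0424). The Frizzled and ligand families thus held calls in both directions. On the deposited scale, where the median of all genes was -1.23, the differences of *Fzd5* (-0.80), *Wnt3a* (-0.71) and *Sfrp5* (-0.34) turned below 0, though above that median.

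Antagonists differed both ways. *Notum* read 9.75, 9.69, 9.28 and 8.78 in PGK12.1 and 8.07 and 7.92 in WD44, a difference of 1.38 (SE 0.278, adjusted p = 0.0189) or 2.61-fold. *Sfrp5* was higher by 0.85 (adjusted p = 0.0079). *Kremen1*, a receptor for DKK proteins, was lower in PGK12.1 (difference -1.14, adjusted p = 0.048, a call that 10 of 12 alternatives ended), with 7.96, 7.90, 7.90 and 8.97 in PGK12.1 and 9.34 and 9.31 in WD44, and its array of experiment 4 was the closest to WD44. *Gsk3b* (-0.66), the feedback target *Axin2* (-0.59) and *Wls* (-0.73) were lower in PGK12.1.

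*Porcn* did not pass (10.69, 10.62, 9.86 and 11.09 in PGK12.1, 9.67 and 9.39 in WD44, difference 1.03, adjusted p = 0.062), although the groups did not overlap. *Notum* and *Lef1* were called both after *Kdm6a* RNAi and between the lines. These comparisons share the PGK12.1 control arrays.

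**Figure D5:**
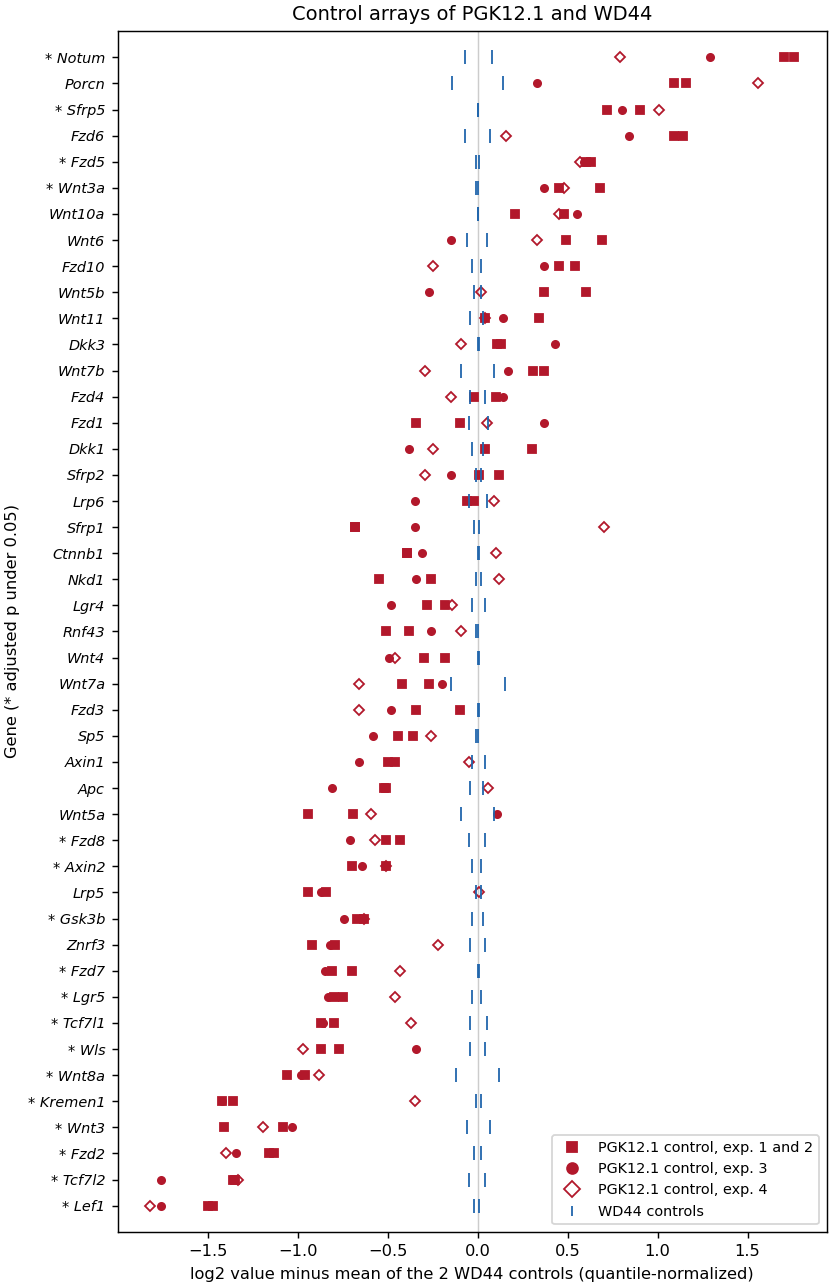
Quantile-normalized log2 values of the 45 members on the 6 control arrays, each minus the mean of the 2 WD44 controls, ordered by mean difference (PGK12.1 minus WD44); red marks are PGK12.1 controls (the open diamond is experiment 4), blue bars WD44 controls, and asterisks mark an adjusted p under 0.05. *Lef1*, *Tcf7l2*, *Fzd2* and *Wnt3* stand at the low end and *Notum* at the high end, and the diamond of *Kremen1* (8.97 before centring, beside 7.90 to 7.96) lies apart from the other 3 PGK12.1 marks.

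Some markers of cell state differed between the lines as well. Of the 8 markers of undifferentiated ES cells, 5 were called higher in PGK12.1 and 0 lower, beside 8.52% and 10.0% of all genes. Their summed levels were 59.2 to 88.1 in PGK12.1 controls and 45.4 to 47.5 in WD44 controls. Marker sums here are deposited linear values divided by each array's mean, without the quantile normalization used for the calls. Of the 19 targets of β-catenin or TCF7L1, 5 were higher, the naive pluripotency genes *Tbx3* (2.08), *Klf2* (1.46), *Nanog* (1.03) and *Esrrb* (0.93) among them. Another 5 were lower, such as *Id2* (-2.62), *Cd44* (-1.32) and *Eomes* (-1.18). The target *Nr5a2* had mean log2 values of 9.79 in PGK12.1 and 9.78 in WD44. The lists share genes, so their calls are not separate: *Nanog* and *Esrrb* are also undifferentiated markers, and *Eomes* is also a primitive streak marker. These calls depended on single arrays too, with 7 markers and 14 targets called without the PGK12.1 control of experiment 4, and 0 markers and 2 or 3 targets without a WD44 control. On the deposited scale 0 of the 8 undifferentiated markers and 3 targets were called. By percentile rank within each array the counts were 2 and 7, and with single RNAi controls alone 0 and 3. Of 6 primitive streak markers tested, 2 were called higher and 1 lower in PGK12.1, and of 7 primitive endoderm markers 0 were called. Fibroblast markers summed to 1.58 to 2.25 in PGK12.1 controls and 2.06 to 2.19 in WD44 controls, with 7 of the 10 tested and 1 called lower (*Dcn*). *Dcn* averaged 0.0757 of the array mean in PGK12.1 controls and 0.276 in WD44 controls, so it reached the minimum only through WD44. The part of these markers in the differences of the Wnt genes was not tested.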

How the data were processed

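cDNA from total RNA was hybridised to Mouse Gene 1.0 ST arrays (Affymetrix). Per the methods and the submitters' processing notes, the authors ran RMA in Affymetrix Expression Console and deposited log2 values. Neither the versions nor the sets of arrays normalized at a time are given in the sources used here. These log2 values were used without further normalization for changes within experiments. RMA applied to separate sets leaves arrays on separate scales, so levels set across lines carry them. Of 35556 probe sets, 21789 had 1 gene symbol, 1621 several and 12146 none. Several probe sets of a gene were averaged (999 genes), and 19919 of 19938 symbols were in the RefSeq table of GRCm38.p6. Genes with a mean of at least 0.1 of the array mean were tested.

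Tests used limma 3.58.1 in R 4.3.3 (4 residual and 5.66 prior degrees of freedom) over 15309 genes with Benjamini-Hochberg adjustment at 0.05, and were tested on simulated data. Each experiment formed a block, because its control and *Kdm6a* RNAi arrays carry the same number in the labels and the methods name paired tests. Deviations of same-numbered arrays correlated at 0.828, 0.846, 0.915 and 0.972 for the PGK12.1 experiments and at 0.265 for WD44. After quantile normalization, which removes differences in array scale, these correlations were 0.833, 0.843, 0.892 and 0.970 for PGK12.1, with 0.241 for WD44. The highest with a control of another number were 0.812, 0.796, 0.0054 and -0.519 for PGK12.1 on deposited values. For experiments 1 and 2 they were 0.814 and 0.814 after quantile normalization. The correlations thus hardly tell the pairs of experiments 1 and 2 apart, and their pairing rests on the labels. The spread was shared by both lines. Control arrays were compared after quantile normalization in a fit of their own (4 residual and 3 prior degrees of freedom). Intervals are 95%. The number of arrays limits precision. Percent changes are from mean log2 differences. Figures used matplotlib 3.10.9 in Python 3.11.15.

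Members and lists were chosen with earlier results of these data known. Named were all called members, those with the smallest p in each comparison (29 in all) and the called genes of the other lists. Alternatives covered the block, the minimum level, the scaling, the variance model, probe sets taken singly, the methods' paired t-test and leaving out experiments.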

Additional observations from a re-analysis of the deposited data

Results flagged for a closer look

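Members were looked at again where 1 of 4 PGK12.1 values stood apart from the rest, with a gap to its neighbour, as a share of the range, past Dixon's critical value. Of 47 groups of values, 5 did so, and chance alone picks about 5% of groups. The log2 change of *Gsk3b* was 0.03, 0.04, -0.04 and 0.03 in experiments 1 to 4, a gap of 0.875 of the range, with experiment 3 below the others. That of *Lrp5* was -0.17, 0.01, -0.17 and -0.19 (0.90), with experiment 2 apart. Among PGK12.1 control values after quantile normalization, *Tcf7l2* in experiment 3 was low (8.35, 8.36, 7.95 and 8.38, a gap of 0.912). *Tcf7l1* (10.26, 10.19, 10.20 and 10.69, a gap of 0.858) and *Kremen1* (7.96, 7.90, 7.90 and 8.97, a gap of 0.951) were high in experiment 4, whose arrays stood apart over all genes.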

How the results depend on the processing

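For the PGK12.1 comparison, 5 members were called with the experiment as a block. Without the replicate block 0 were called, as were 0 of all genes. Double RNAi alone and the methods' paired t-test also gave 0, and single RNAi alone gave 1 (*Lef1*). Leaving out 1 experiment gave 4 to 5, and the other settings 4 to 6. *Notum*, *Porcn*, *Lgr4* and *Sfrp1* were kept in each of these. Over all genes, 890 calls became 452 with no minimum level, 1365 with a minimum of 0.25, 1647 with a trended and robust variance, 101 with single RNAi alone, 537 with PGK12.1 arrays alone and 350 to 607 with 1 experiment left out. *Tcf7l1* was gained with the minimum of 0.25, the quantile normalization and the trended variance. The difference between the lines gave 2 members with the minimum of 0.25 and 3 with the trended variance, and 0 otherwise. In the control arrays, 17 calls became 5 on the deposited scale, 11 with the minimum of 0.25, 4 with single RNAi controls alone and 1 to 32 with 1 array left out (2842 calls over all genes became 857, 1998, 401 and 192 to 8869). On the deposited scale *Sfrp5* (-0.34), *Fzd5* (-0.80) and *Wnt3a* (-0.71) changed sign. WD44 and double minus single RNAi kept 0 members throughout. The causes were not tested. Another background correction and the slide were not run.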
